A study of Mus musculus with 6 samples.

Results

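The genes described here encode the nuclear subunits of the 5 enzyme complexes of oxidative phosphorylation. They were picked by gene symbol from the array's platform annotation: symbols that begin with Ndufa, Ndufb, Ndufc, Ndufs, Ndufv, Uqcr, Cox4 to Cox8 or Atp5, without the Ndufaf assembly factors, and Sdha, Sdhb, Sdhc, Sdhd and Cyc1. Of 18193 genes with a probe set of their own, 83 met this rule, with 170 probe sets among them. For each gene the probe set with the highest mean over the 6 arrays was kept. This gave 36 genes of complex I, 4 of complex II, 9 of complex III, 17 of complex IV and 17 of complex V.

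The arrays measured RNA of hematopoietic stem cells (HSCs) sorted from adult mice by the gate lin-sca1+ckit+CD150+CD48-. Of 6 single-colour arrays, 3 are of mice with a homozygous PU.1 knock-in (PU.1 ki/ki) and 3 of wild-type mice. The title of the series concerns the autoregulation of PU.1, an ETS transcription factor of blood cells, and the proliferation of adult HSCs. The labels give neither the strain, the sex or the site of the knock-in allele, nor whether each array stands for 1 animal or a pool. Values are array intensities on a linear scale with a minimum of 10, and differences are PU.1 ki/ki minus wild type in log2(intensity + 1).

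Complexes I to IV pass electrons from NADH and succinate to oxygen and, except for complex II, pump protons across the inner mitochondrial membrane. Complex V, the ATP synthase, makes ATP from the returning protons. Most subunits are nuclear genes, and a small catalytic core of complexes I, III, IV and V is encoded by mitochondrial DNA. Adult HSCs are known for relying on glycolysis while quiescent, and oxidative phosphorylation is engaged as they leave quiescence and differentiate.

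The level of the gate's own genes varied within both groups. The summed level of 6 HSC markers was 5220 to 6537 in PU.1 ki/ki and 3825 to 6722 in wild type. Kit read 452 to 1368 in PU.1 ki/ki and 374 to 1622 in wild-type HSCs, and Slamf1, which encodes CD150, read 170 to 1525 in PU.1 ki/ki and 42 to 440 in wild type. Cd48, the gate's negative marker, read 90 to 290 in PU.1 ki/ki and 75 to 704 in wild type, and Ly6a had no probe set annotated to it alone. Wild-type replicates 2 and 3 had lost signal on many bright probe sets. Signal is called lost here where a probe set stood 4-fold or more under its median on the remaining 5 arrays, itself 512 or more (9 on the log2 scale). Of such bright probe sets 0.119 to 0.219% were lost per PU.1 ki/ki array, against 1.12%, 11.5% and 11.3% on wild-type replicates 1, 2 and 3. The summed level of 5 macrophage markers was 327 to 985 in PU.1 ki/ki and 145 to 180 in wild type, with C1qb at the minimum on all wild-type arrays and 2 of the 5 without overlap between groups. That of 6 granulocyte and monocyte markers was 9512 to 11231 in PU.1 ki/ki and 11929 to 18785 in wild type, with 1 of 6 (Ctsg) without overlap. For 4 T and NK cell markers it was 208 to 269 in PU.1 ki/ki and 373 to 613 in wild type, with 1 of 4 (Cd3e) without overlap. The sums of B cell, erythroid, megakaryocyte and endothelial markers overlapped between groups. Of 4 erythroid markers Klf1 was higher (118, 123 and 159 in PU.1 ki/ki against 42, 21 and 11 in wild type) and Hba-a1 lower without overlap, and of 4 B cell markers Cd79a was lower. The Gapdh control probe sets at the 3' and 5' ends, whose ratio is a sign of RNA integrity, gave 2.98 to 4.75 in PU.1 ki/ki and 3.36 to 6.68 in wild type, highest on wild-type replicates 2 and 3. The part of these markers and of RNA quality in the results below was not tested. Spi1, the gene of PU.1, read 161 to 212 in PU.1 ki/ki and 158 to 199 in wild type, and whether its probe set lies outside the altered part of the locus is not known here.

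In PU.1 ki/ki HSCs no subunit gene passed the test against wild type, and the group as a whole lay near no difference. Of the 83 genes, 41 read higher in PU.1 ki/ki and 42 lower, with a median difference of -0.04, against 0.01 over all 18193 genes. With each array centred on its median, or with a further quantile normalization, 30 of the 83 were higher. With the mean of a gene's probe sets 47 were higher. The centring moved the median of all probe sets from 0.00 to -0.11. The range was -2.15 (Cox7a1) to 1.39 (Sdhd), and the interval between the quartiles ran from -0.27 to 0.35. In the limma fit over 45037 probe sets 0 members had an adjusted p under 0.05, as did 0% of all probe sets. The members' adjusted p lay between 0.508 and 1. At an unadjusted p under 0.05 there were 6 members (7.23%), 1 higher and 5 lower, where 8.66% of all genes reached it, 4.39% higher and 4.27% lower. In 11 members (13.3%) the 3 values of one group lay outside those of the other, with 4 genes higher in PU.1 ki/ki and 7 lower. Over all genes this share was 12.8%, with 6.44% higher and 6.36% lower, so the members' count was near the background. Of the 3277 genes with a mean of at least 512, a level that 70 of the members reached, 14.3% did not overlap, 295 higher and 175 lower. Their median difference was 0.16, with 2037 genes higher and 1240 lower, whereas the 70 bright members had a median of -0.02, with 35 higher and 35 lower. The difference between these groups of genes was not tested. With centring the members' counts without overlap were 2 higher and 12 lower, where 19.5% of all probe sets did not overlap in either direction. With quantile normalization they were 1 and 10, where 12.6% of all probe sets did not. The arrays read RNA of a sorted population, in which fewer cells of a type and less RNA per cell cannot be told apart.

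**Figure D1:**
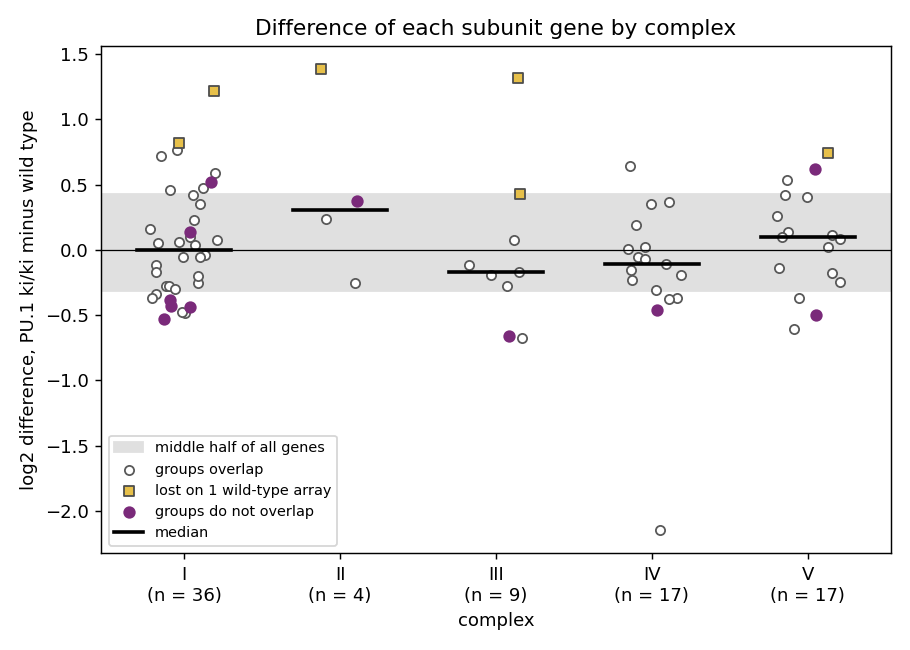
Log2 difference (PU.1 ki/ki minus wild type, vertical axis) of the 83 subunit genes, grouped by complex (horizontal axis). Filled circles are the 11 genes whose groups do not overlap, squares the 6 genes lost on 1 wild-type array, black lines the median of each complex, and the grey band the interval between the quartiles of all genes (-0.32 to 0.43). Most genes lie within or close to the band, and the medians of the complexes lie between -0.17 and 0.31.

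The subunit genes were bright, and their median spread was smaller than that of all genes. On all 6 arrays 70 of the 83 (84.3%) lay above the array's upper quartile, against 21.5% of all genes. Only Cox7b2 was at the minimum of 10 on any array, and 10 members had a mean under 200. The standard deviation within groups had a median of 0.37 log2 units over the members, against 0.52 over all genes and 0.53 over the 3277 genes with a mean of at least 512. Differences over 1 in size, in either direction, were seen in 4 members (4.82%), against 11.9% of all genes and 13.8% of those with a mean of at least 512. Of the 4, Sdhd, Uqcrb and Ndufv1 were lost on 1 wild-type array, and Cox7a1 was dim in PU.1 ki/ki. The median SD was 0.26 for PU.1 ki/ki and 0.37 for wild type, with 53 of the 83 genes more variable in wild type. Over all genes the median SDs were 0.31 for PU.1 ki/ki and 0.59 for wild type, with 13544 of 18193 more variable in wild type. Across the members, log2 intensities correlated at 0.97 between PU.1 ki/ki arrays, at 0.95 to 0.97 between these and wild-type replicate 1, and at 0.86 to 0.92 in all pairs with wild-type replicate 2 or 3. These correlations are across genes, which share the array and its scaling.

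**Figure D2:**
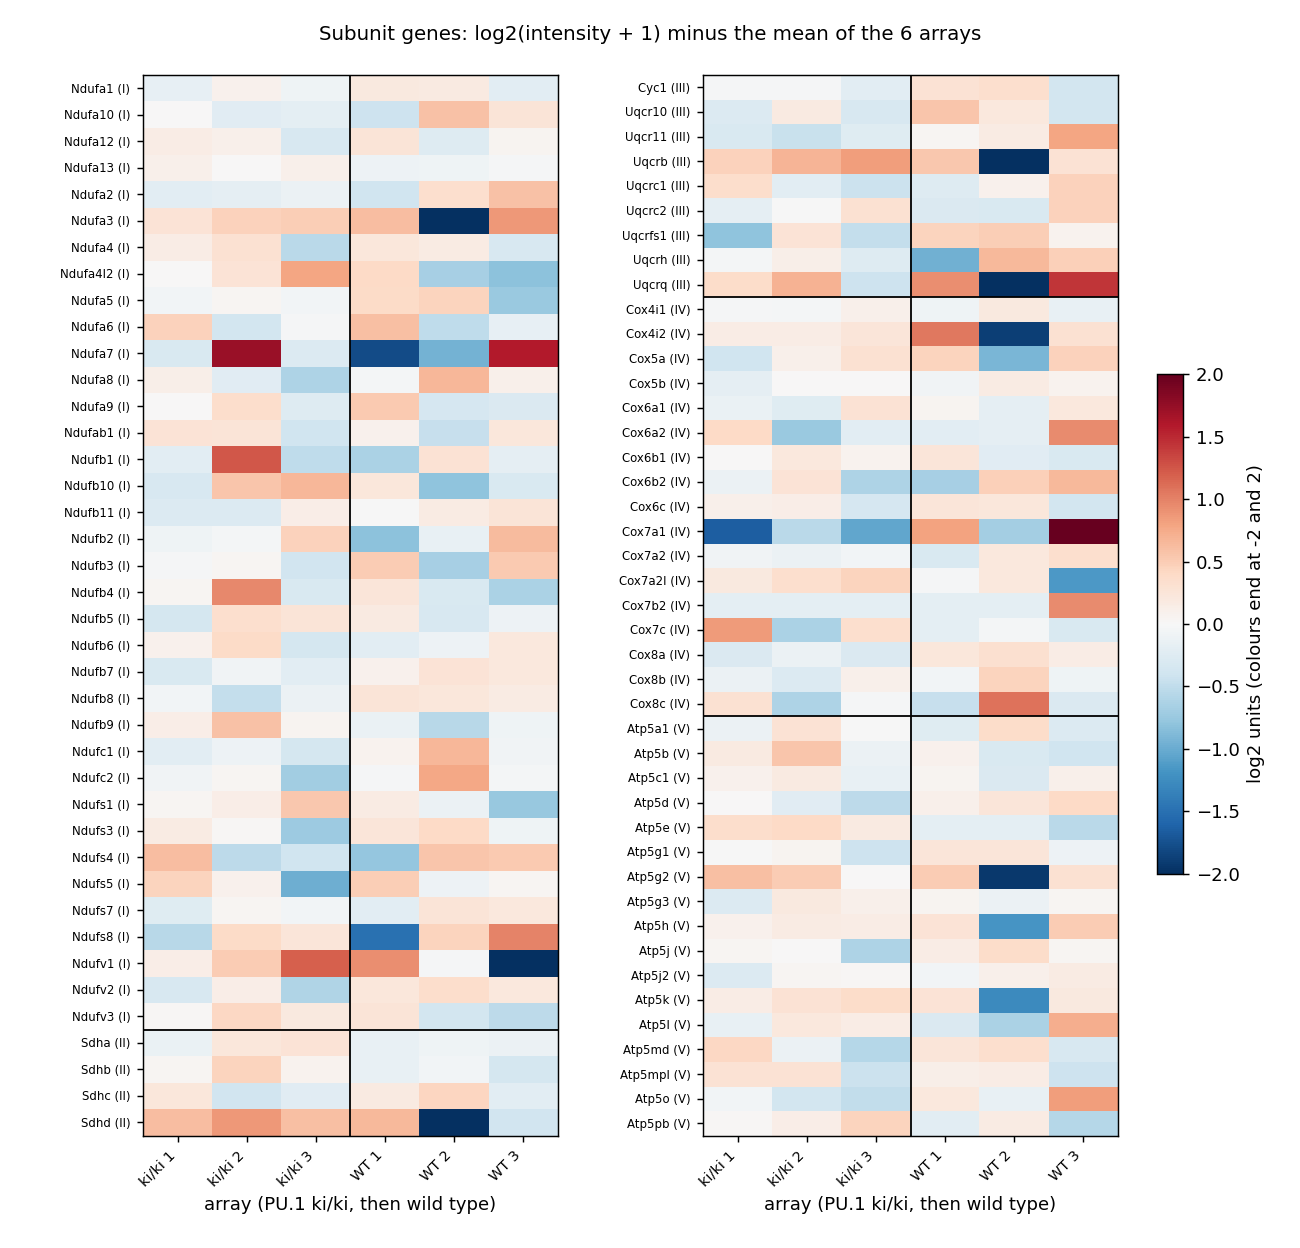
Level of each of the 83 subunit genes (rows, with the complex in brackets) on each array (columns), as log2(intensity + 1) minus the gene's mean over the 6 arrays. Red is above and blue below that mean, and colours end at -2 and 2. Among the darkest blue cells are those in the columns of wild-type replicates 2 and 3, in Ndufa3, Uqcrb, Uqcrq, Sdhd and Atp5g2 for replicate 2 and in Ndufv1 for replicate 3.

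Medians by complex pointed in different directions. The median difference was -0.00 for complex I (18 genes higher, 18 lower), 0.31 for complex II (3 and 1), -0.17 for complex III (3 and 6), -0.11 for complex IV (6 and 11) and 0.10 for complex V (11 and 6). Under both of these other scalings complexes II, III and IV kept their signs and complex I was at -0.11, while complex V turned to -0.01 with centring and to -0.00 with quantile normalization. On each array the members' levels were also set against their own 6-array means. The median level of the 4 complex II genes was 0.13, 0.34 and 0.17 in PU.1 ki/ki, against 0.01, -0.07 and -0.28 in wild type. That of the 9 complex III genes was -0.04, 0.12 and -0.26 in PU.1 ki/ki, against 0.29, 0.16 and 0.45 in wild type. The 3 values of each group thus did not overlap for these complexes, higher in PU.1 ki/ki for complex II and lower for complex III, and they overlapped for complexes I, IV and V. As medians of 4 and 9 genes from the same 6 arrays these values carry no test. On wild-type replicate 2, 1 of the complex II genes (Sdhd) and 2 of the complex III genes (Uqcrb and Uqcrq) were lost.

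**Figure D3:**
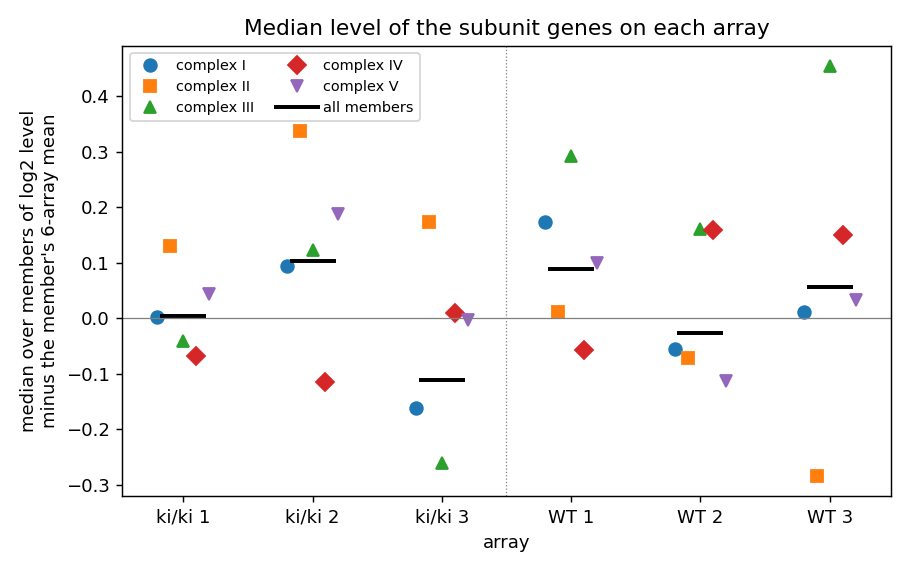
Median level of the subunit genes of each complex (symbols) and of all 83 genes (bars) on each array, in log2 units relative to each gene's mean over the 6 arrays. Complex III (upward triangles) reads -0.26 to 0.12 in PU.1 ki/ki and 0.16 to 0.45 in wild type, while the bars for all genes stay between -0.11 and 0.10.

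Complex I, the NADH dehydrogenase, consists of a conserved catalytic core and many accessory subunits. Of its core subunits with a probe set of their own, Ndufv2, which carries an iron-sulfur cluster next to the flavin site, read 1484, 2016 and 1214 in PU.1 ki/ki against 2166, 2351 and 2138 in wild-type HSCs. All wild-type values lay above the PU.1 ki/ki values, and the difference was -0.53 ± 0.22 (SE, 95% interval -1.09 to 0.03, limma adjusted p = 0.613). Its other probe sets went the other way, with differences of 1.13 and 0.36, the first of them lost on wild-type replicate 3 (143, against 909 to 1365 on the other arrays). Ndufv1, the flavoprotein that accepts electrons from NADH, read 1507, 1964 and 3153 in PU.1 ki/ki against 2640, 1355 and 206 in wild type. Its difference of 1.22 came to 0.15 without wild-type replicate 3, on which it was lost, and to -0.33 without replicates 2 and 3 together. Ndufs1, the largest iron-sulfur subunit, read 339, 362 and 477 in PU.1 ki/ki against 370, 303 and 194 in wild type, with overlap (0.47). Of the other core subunits Ndufs3 differed by -0.37, Ndufs7 by -0.17 and Ndufs8 by 0.04, with overlapping groups. Ndufs8 read 1256, 2401 and 2177 in PU.1 ki/ki against 656, 2515 and 3677 in wild type, so its wild-type values enclosed those of PU.1 ki/ki.

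In complex I 6 of 36 genes (16.7%) did not overlap, against 12.8% of all genes. Accessory subunits, which are most of the 36, gave 5 of these 6, 3 of them lower. Ndufb7, the brightest member of the complex, read 6712, 7947 and 7213 in PU.1 ki/ki against 8841, 10015 and 9658 in wild type. Its means were 7291 ± 621 (PU.1 ki/ki) and 9505 ± 602 (wild type) with SD, n = 3 each, a difference of -0.38 ± 0.13 (limma adjusted p = 0.568). Ndufb8, whose protein is lost when the complex does not assemble and serves as a common blot marker of it, read 1894, 1411 and 1804 in PU.1 ki/ki against 2356, 2295 and 2190 in wild type (-0.43 ± 0.16, adjusted p = 0.594). Ndufc1 read 4310, 4675 and 3919 in PU.1 ki/ki against 5217, 7895 and 4773 in wild type (-0.44 ± 0.23, adjusted p = 0.661), and without wild-type replicate 2 the difference was -0.22. Higher in PU.1 ki/ki was Ndufb9, a subunit of the membrane arm, with 3337, 4563 and 3155 in PU.1 ki/ki against 2767, 2073 and 2855 in wild type (0.52 ± 0.22, adjusted p = 0.618). Ndufa13, known also as Grim19, read 4108, 3855 and 4088 in PU.1 ki/ki against 3579, 3610 and 3768 in wild type, which is the smallest difference of the 11 (0.14 ± 0.11, adjusted p = 0.742). The Ndufa13 difference was 0.03 with centring and 0.08 with quantile normalization.

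On the brightest probe sets of Ndufa3 and Ndufa7 the size of the difference depended on single arrays. Ndufa3 read 2713, 3113 and 3160 in PU.1 ki/ki against 3457, 342 and 4123 in wild type, with 1 of its other probe sets also lost on wild-type replicate 2 (1402, 1846 and 2057 in PU.1 ki/ki against 2150, 198 and 3013 in wild type). Its difference of 0.82 became -0.34 without that array. Ndufa7 read 310, 1267 and 316 in PU.1 ki/ki against 110, 197 and 1151 in wild type, high on 1 array of each group. Its difference of 0.77 was 0.07 to 1.75 with any 1 array omitted, always higher in PU.1 ki/ki. All 4 of its other probe sets were also higher in PU.1 ki/ki, by 0.41 to 0.84, and on 1 of them the groups did not overlap (840, 619 and 544 in PU.1 ki/ki against 379, 395 and 331 in wild type). Ndufa4, named for complex I and now counted as a subunit of complex IV, read 2110, 2332 and 1308 in PU.1 ki/ki against 2228, 2128 and 1520 in wild type (-0.05). Its hypoxia-inducible paralog Ndufa4l2 was dim, at 63, 76 and 109 in PU.1 ki/ki against 83, 39 and 35 in wild type (0.72). Ndufb1 and Ndufb4 had means of 55.7 and 18.8, Ndufb4 being the dimmest of the complex. Of the probe sets shared by Ndufb4 and its copies, which name no single gene, 1 read 1673, 911 and 1589 in PU.1 ki/ki against 1875, 1775 and 2446 in wild type (-0.58, without overlap). The other read 1084, 889 and 834 in PU.1 ki/ki against 1140, 433 and 939 in wild type (0.26). The remaining complex I genes overlapped between groups and differed by -0.48 (Ndufa8, Ndufc2) to 0.59 (Ndufb10).

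Complex II, succinate dehydrogenase, links the citrate cycle to the respiratory chain and has only nuclear subunits. Sdhb, the iron-sulfur subunit, read 1291, 1728 and 1333 in PU.1 ki/ki against 1136, 1212 and 990 in wild-type HSCs. All PU.1 ki/ki values lay above the wild-type values, with means of 1451 ± 241 (PU.1 ki/ki) and 1113 ± 113 (wild type) with SD, n = 3 each, and a difference of 0.37 ± 0.17 (95% interval -0.07 to 0.82, adjusted p = 0.641). Sdha, the flavoprotein with the succinate site, read 2499, 3190 and 3300 in PU.1 ki/ki against 2460, 2580 and 2520 in wild type (0.24 ± 0.15, adjusted p = 0.697). Of its values only that of PU.1 ki/ki replicate 1 lay within the wild-type range. Among the other probe sets of Sdha only 1 had the same sign, and the mean of its 4 probe sets differed by 0.11. The membrane anchors Sdhc and Sdhd differed in opposite directions on their brightest probe sets. Sdhc, the brightest gene of the complex, read 4933, 3224 and 3596 in PU.1 ki/ki against 4754, 5651 and 3625 in wild type (-0.26), and Sdhd, the dimmest, 1342, 1606 and 1324 in PU.1 ki/ki against 1375, 171 and 674 in wild type (1.39 ± 0.79, adjusted p = 0.674). Wild-type replicate 1 had Sdhd at the PU.1 ki/ki level, and replicates 2 and 3 were low on both of its probe sets (211 and 304 on the other, against 472 to 764 on the remaining arrays). Without replicates 2 and 3 together the Sdhd difference was 0.045. The other probe set of Sdhc was lost on wild-type replicate 2 too (162, against 583 to 1876 on the other arrays). It was higher in PU.1 ki/ki, unlike the brightest, and the mean of the 2 Sdhc probe sets differed by 0.40.

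Complex III, the cytochrome bc1 complex, passes electrons from ubiquinol to cytochrome c. Uqcr11, a small accessory subunit, read 1352, 1227 and 1403 in PU.1 ki/ki against 1721, 1864 and 2883 in wild-type HSCs. The groups did not overlap, with a difference of -0.66 ± 0.24 (95% interval -1.27 to -0.06, adjusted p = 0.585), and of -0.43 without wild-type replicate 3, its highest array. Uqcrfs1, the Rieske iron-sulfur protein, read 344, 721 and 431 in PU.1 ki/ki against 815, 845 and 629 in wild type. Only PU.1 ki/ki replicate 2 reached the wild-type range, and the difference was -0.67 ± 0.32 (adjusted p = 0.644). Cyc1, which carries the haem of cytochrome c1, read 533, 535 and 470 in PU.1 ki/ki against 665, 687 and 419 in wild type (-0.17). The core proteins Uqcrc1 and Uqcrc2 differed by -0.19 and 0.08, and Uqcrh and Uqcr10, the dimmest gene of the complex, by -0.12 and -0.27, each with overlap.

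Uqcrb and Uqcrq, accessory subunits near the ubiquinone sites, were both lost on wild-type replicate 2. Uqcrb, the brightest gene of the complex, read 4154, 4833 and 5355 in PU.1 ki/ki against 4394, 426 and 3695 in wild type. Its other probe set was not low on that array, with 2085, 938 and 1497 in PU.1 ki/ki against 1144, 1431 and 1415 in wild type, and gave a difference of 0.11 where the brightest gave 1.32. Uqcrq read 966, 1214 and 561 in PU.1 ki/ki against 1434, 92 and 2029 in wild type, and its difference was 0.43 with all arrays and -0.97 without wild-type replicate 2.

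Complex IV, cytochrome c oxidase, hands the electrons to oxygen, and several of its nuclear subunits exist as a ubiquitous and a tissue-specific isoform. Cox8a was lower in PU.1 ki/ki without overlap, and the other ubiquitous isoforms given here overlapped between groups on their brightest probe sets. Cox4i1 read 2863, 2852 and 3135 in PU.1 ki/ki against 2765, 3349 and 2626 in wild type, a difference of 0.02 ± 0.15 (95% interval -0.35 to 0.40). Cox5b, the brightest of the complex, read 6465, 7293 and 7338 in PU.1 ki/ki against 6936, 8138 and 7691 in wild type (-0.11 ± 0.13, interval -0.44 to 0.23). Cox6a1 differed by -0.06, Cox6b1 by 0.19, Cox6c by -0.07 and Cox7a2 by -0.16, all with overlap. Cox5a differed by 0.00 on its brightest probe set, and another of its probe sets was lower in PU.1 ki/ki without overlap (1221, 1627 and 1350 in PU.1 ki/ki against 2310, 2542 and 2208 in wild type, -0.76). Cox8a, the ubiquitous isoform of the smallest subunit, read 1117, 1256 and 1110 in PU.1 ki/ki against 1587, 1696 and 1509 in wild type. The groups did not overlap, with means of 1161 ± 82.3 (PU.1 ki/ki) and 1597 ± 93.9 (wild type) with SD, n = 3 each. The difference was -0.46 ± 0.12 (95% interval -0.78 to -0.14, unadjusted p = 0.0132 in limma, adjusted p = 0.508), and -0.52 to -0.42 with any 1 array omitted. The other Cox8a probe sets had the same sign (-0.21 and -0.23) and overlapped between groups.

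The tissue-specific isoforms were dim in both groups, apart from Cox6b2 and from Cox7a1 on wild-type replicate 3. Cox4i2, the isoform known from lung and from hypoxia, read 60, 60 and 64 in PU.1 ki/ki against 113, 14 and 67 in wild type. The muscle isoforms Cox6a2 and Cox8b read 49 to 109 (Cox6a2) and 37 to 48 (Cox8b) in PU.1 ki/ki against 71 to 159 (Cox6a2) and 42 to 61 (Cox8b) in wild type. Of the testis-type isoforms, Cox8c read 52 to 100 in PU.1 ki/ki against 58 to 173 in wild type, and Cox7b2, the dimmest member, was at the minimum of 10 on 5 arrays and at 23 on wild-type replicate 3. Cox6b2, also of testis type, read 526, 689 and 373 in PU.1 ki/ki against 362, 793 and 896 in wild type (-0.31). Cox7a1, the heart and skeletal muscle isoform, read 27, 60 and 42 in PU.1 ki/ki against 153, 54 and 755 in wild type. Its difference of -2.15 ± 1.02 (95% interval -4.76 to 0.47, adjusted p = 0.644) was the largest in size among the members. Wild-type replicate 2 lay within the PU.1 ki/ki range, and the difference was -1.14 without wild-type replicate 3. Cox7a2l, which stabilises assemblies of complexes III and IV, read 4710, 5189 and 5628 in PU.1 ki/ki against 4062, 4782 and 1858 in wild type (0.64), and 0.23 without wild-type replicate 3. Cox7c was read only by dim probe sets with means under 200.

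Complex V, the ATP synthase, has a catalytic head with a central stalk and a membrane part with the proton ring. In the central stalk the subunits epsilon (Atp5e) and delta (Atp5d) differed in opposite directions. Atp5e read 3173, 3267 and 2822 in PU.1 ki/ki against 2170, 2180 and 1708 in wild-type HSCs. All PU.1 ki/ki values lay above the wild-type values, with means of 3087 ± 235 (PU.1 ki/ki) and 2019 ± 270 (wild type) with SD, n = 3 each. The difference was 0.62 ± 0.16 (95% interval 0.22 to 1.02, unadjusted p = 0.0106 in limma, adjusted p = 0.508), and 0.50 to 0.68 with any 1 array omitted. Atp5e is read by a single probe set, so no second one bears on it. Atp5d read 2217, 1882 and 1539 in PU.1 ki/ki against 2364, 2608 and 2922 in wild type, without overlap (-0.50 ± 0.19, adjusted p = 0.598). Its other probe set read 2186, 2797 and 2368 in PU.1 ki/ki against 2569, 1894 and 1522 in wild type, with the opposite sign (0.32). The third stalk subunit, gamma (Atp5c1), differed by 0.08 ± 0.17.

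Both main subunits of the catalytic head overlapped between groups. Its alpha subunit Atp5a1, the brightest of the complex, read 5781, 7616 and 6241 in PU.1 ki/ki against 5260, 8030 and 5154 in wild type (0.11 ± 0.24), and the catalytic beta subunit Atp5b 3214, 4150 and 2616 in PU.1 ki/ki against 2992, 2280 and 2147 in wild type (0.42 ± 0.24, adjusted p = 0.674). A further probe set of Atp5a1 was lost on wild-type replicates 2 and 3 (331 and 262, against 1758 to 2329 on the other arrays) and gave 1.82. The proton ring is made of subunit c, which Atp5g1, Atp5g2 and Atp5g3 encode as one mature protein with different import peptides. Atp5g1 differed by -0.25 and Atp5g3 by 0.02, while Atp5g2 read 1337, 1251 and 881 in PU.1 ki/ki against 1251, 231 and 1091 in wild type (0.74, and -0.04 without wild-type replicate 2, where it was lost). Of the peripheral stalk, Atp5o, which confers sensitivity to oligomycin, differed by -0.60, Atp5j by -0.37, Atp5h by 0.26 and Atp5pb by 0.41. All overlapped between groups on their brightest probe sets. The other probe set of Atp5o had the opposite sign, and the mean of the 2 Atp5o probe sets differed by 0.20. For Atp5pb both probe sets were higher in PU.1 ki/ki, and their mean differed by 1.04. Atp5h and Atp5k were low on wild-type replicate 2 (2188 and 1355) without meeting the limit for lost signal. The remaining genes, Atp5j2, Atp5l, Atp5md and Atp5mpl, differed by -0.18 to 0.14. Atp5l, at 670, 858 and 818 in PU.1 ki/ki against 606, 477 and 1223 in wild type, was the dimmest gene of complex V.

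**Figure D4:**
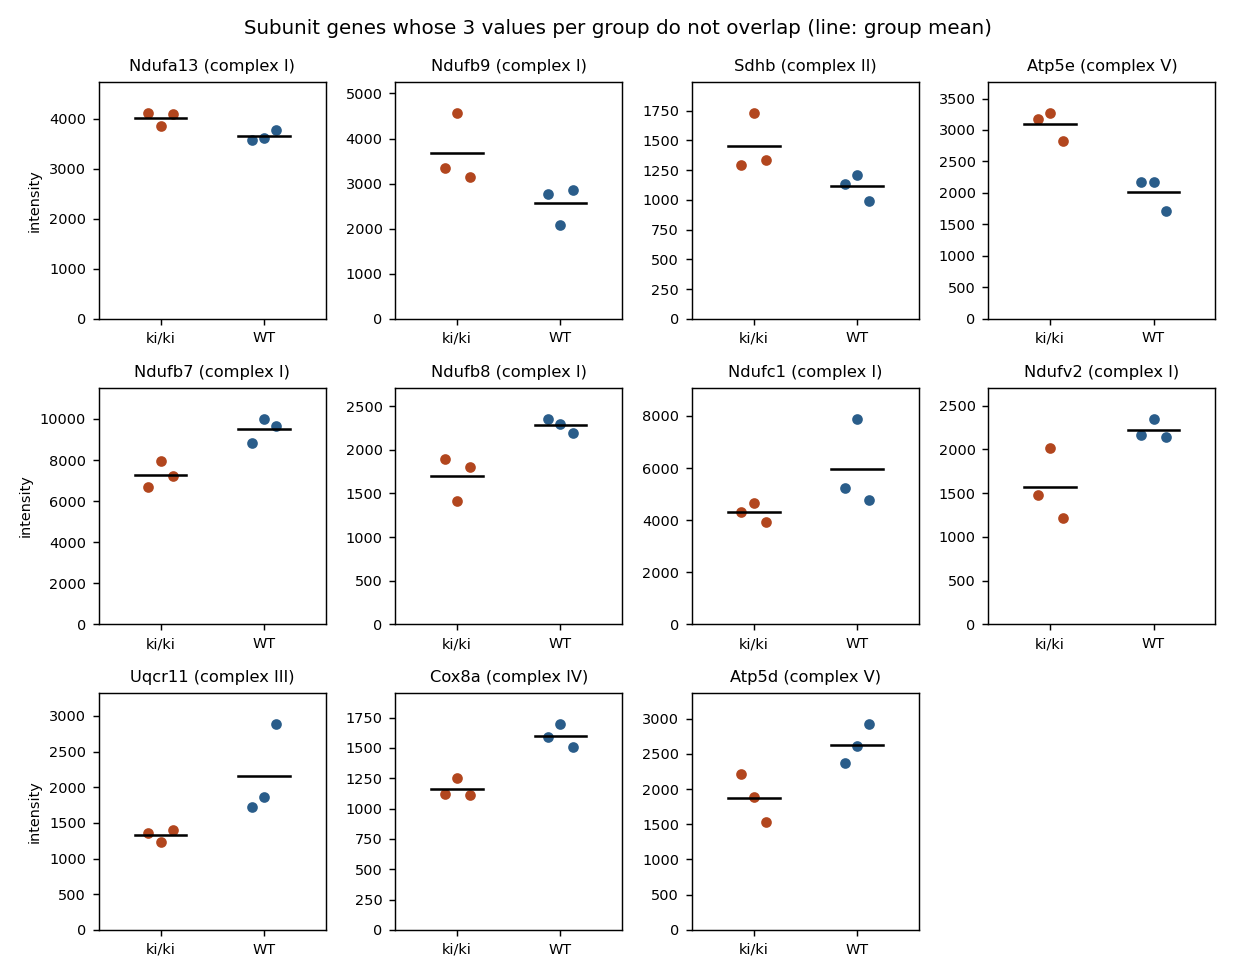
Intensity (vertical axes, linear and starting at 0) of the 11 subunit genes whose 3 PU.1 ki/ki and 3 wild-type values do not overlap, with points for arrays and a line for each group's mean. The first 4 panels are higher in PU.1 ki/ki, the other 7 lower. Gaps between the nearest values are narrow in Ndufa13 (3855 in PU.1 ki/ki, 3768 in wild type) and Ndufc1 (4675 in PU.1 ki/ki, 4773 in wild type).

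Promoter sequences were examined for letters of factors that are known to control these genes, NRF1 and the ETS factor GABP, and for those of a PU.1-type ETS site. RefSeq windows of 250 bases before to 50 after the annotated start (GRCm38.p6) were matched by gene number for 67 of the 83 genes, with the first window listed for each. GCGCATG (NRF1 type) was present on either strand in 12 of 67 windows (17.9%), against 5.73% of 14369 windows of genes on the array. CCGGAAG (GABP type) was present in 16 (23.9%), against 13.8%, and 6 windows held both, or 8.96% against 1.03%. GAGGAAG (PU.1 type), which shares the core letters GGAAG with the GABP type, was present in 4 (5.97%), those of Ndufa1, Ndufs4, Sdhd and Atp5g1, against 13.2%. Among the 11 genes without overlap, those matched with the NRF1 or GABP letters were found on both sides. They were Sdhb and Atp5e (higher) and Ndufb7, Ndufb8, Uqcr11 and Cox8a (lower). Ndufa13, Ndufc1, Ndufv2 and Atp5d had neither in the window searched, and Ndufb9 had no window. The windows of Ndufa13 and Atp5d lie wholly inside the gene's RefSeq span, so the sequence before its outermost start was not searched. Over all 67 windows of the members 45 held neither, and the shares were not tested against each other. The 150 bases before the start are shown for 2 genes of each direction, 5′ to 3′ on the gene's strand, because NRF1-type or GABP-type letters occur in genes of either direction. Capitals mark matches that lie wholly within the stretch.
Sdhb: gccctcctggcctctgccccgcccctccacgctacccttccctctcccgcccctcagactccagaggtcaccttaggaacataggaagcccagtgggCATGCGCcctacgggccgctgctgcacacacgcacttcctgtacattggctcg
Atp5e: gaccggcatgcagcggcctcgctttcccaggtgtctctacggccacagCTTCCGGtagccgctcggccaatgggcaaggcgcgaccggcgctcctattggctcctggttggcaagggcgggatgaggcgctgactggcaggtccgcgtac
Ndufb7: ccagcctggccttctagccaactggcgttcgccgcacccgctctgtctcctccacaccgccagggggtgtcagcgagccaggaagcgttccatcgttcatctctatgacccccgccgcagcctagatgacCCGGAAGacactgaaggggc
Uqcr11: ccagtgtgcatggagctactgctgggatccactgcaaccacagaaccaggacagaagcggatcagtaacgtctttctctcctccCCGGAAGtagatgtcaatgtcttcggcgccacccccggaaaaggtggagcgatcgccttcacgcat
The Sdhb stretch lies at chr4:140961121-140961270 on the plus strand and carries NRF1-type letters. Those of Atp5e (chr2:174464102-174464251, minus strand), Ndufb7 (chr8:83566608-83566757, plus strand) and Uqcr11 (chr10:80406822-80406971, minus strand) carry GABP-type letters. In Sdhb GABP-type letters follow just after the start, and in Uqcr11 NRF1-type letters span it. A match is a run of letters and not a shown binding site.

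Different probe sets of one gene often differed in sign. Of the 83 genes 49 had more than 1 probe set, and of their 87 other probe sets 45 had the same sign as the brightest and 42 the opposite. Among the 55 of these with a mean of at least 200, 34 had the same sign. For the 11 genes without overlap, 4 of 10 other probe sets had the same sign. They were those of Cox8a (both), Ndufb7 (-0.18) and 1 of Ndufb9 (0.73), while the other probe sets of Ndufb8, Ndufc1, Ndufv2 and Atp5d and a dim one of Ndufb9 pointed the other way. Of the 87 other probe sets 9 did not overlap between groups, where 12.1% of all probe sets did not. Some genes had the same sign on all their probe sets. Ndufb11 was lower on all 3 (-0.27, -0.74 and -0.32), without overlap on 1 of them. Atp5k was higher on all 3 (0.53, 0.56 and 0.89), and on the 2 other than the brightest the groups did not overlap. On the brightest the difference was 0.035 without wild-type replicate 2 and -0.005 without replicates 2 and 3 together. Of the members, 20 were read by probe sets whose suffix marks possible matches to other transcripts (13 of type s and 7 of type x), among them Atp5e, Atp5d, Cox8a and Ndufa13.

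**Figure D5:**
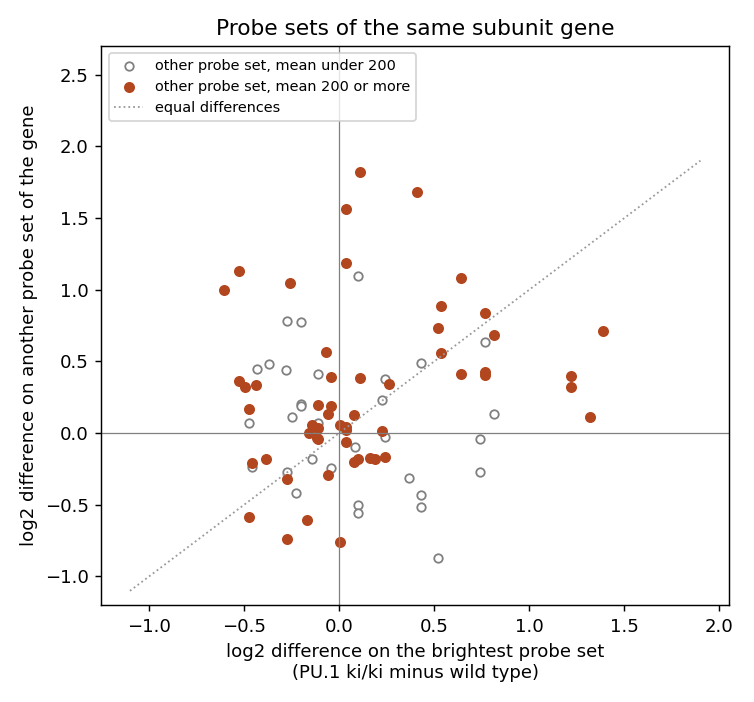
Log2 difference (PU.1 ki/ki minus wild type) on the brightest probe set of a gene (horizontal axis) and on each of its other probe sets (vertical axis), 87 points from 49 genes. Filled points have a mean of at least 200. Points lie in all 4 quadrants, and 42 of 87 have opposite signs on the 2 axes.

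Genes that build, feed or regulate the chain were read from lists, with counts set beside the 12.8% of all genes without overlap. Of 46 assembly factors 44 were measured, 26 of them higher in PU.1 ki/ki and 18 lower (median 0.13), and 3 did not overlap, 2 higher and 1 lower. Ndufaf3, a complex I assembly factor, read 144, 143 and 77 in PU.1 ki/ki against 46, 28 and 44 in wild type (1.58 ± 0.34, adjusted p = 0.463). Cox17, the copper chaperone of complex IV, read 1441, 1808 and 1388 in PU.1 ki/ki against 2042, 2624 and 1895 in wild type (-0.50, adjusted p = 0.603). The citrate cycle had 6 of 12 genes higher (median 0.10, and -0.01 and -0.00 with centring and quantile normalization) and 0 without overlap, with Dld, a dehydrogenase subunit of 2-oxoacid complexes, at 360, 373 and 293 in PU.1 ki/ki against 306, 22 and 111 in wild type (1.88, and 0.88 without wild-type replicate 2), and the synthetase subunit Suclg1 at 628, 987 and 1036 in PU.1 ki/ki against 1942, 923 and 1101 in wild type (-0.54, and -0.22 without wild-type replicate 1). The mitochondrially encoded ND5 of complex I, the only such gene with a probe set of its own, read 8743, 6371 and 9470 in PU.1 ki/ki against 9748, 7442 and 6574 in wild type (0.05, and -0.06 and -0.04 with centring and quantile normalization).

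The median differences of carriers and regulators lay further from 0 than that of the subunit genes, and their spread was larger. The standard deviation within groups had a median of 0.56 for carriers and 0.74 for regulators, against 0.37 for the subunit genes. The difference between these groups of genes was not tested. Of 23 measured genes of electron carriers, ubiquinone synthesis and transport, 19 were higher in PU.1 ki/ki (median 0.37), and 6 (26.1%) did not overlap, all higher. Pdss2, which makes the side chain of ubiquinone, read 463, 208 and 294 in PU.1 ki/ki against 78, 47 and 56 in wild type (2.35 ± 0.36, adjusted p = 0.430). The others were Coq4, Coq7, Coq8a, Gpd2 and Atpif1. Atpif1, the inhibitor of the ATP synthase, read 4204, 4995 and 4908 in PU.1 ki/ki against 3684, 1190 and 3775 in wild type (0.88, adjusted p = 0.674), and its difference was 0.33 without wild-type replicate 2. Of the 4 lower genes Etfa, of the electron transfer flavoprotein, had the lowest p, with 1368, 1922 and 1192 in PU.1 ki/ki against 1996, 2455 and 1435 in wild type (-0.39, adjusted p = 0.730, and -0.21 without wild-type replicate 2).

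Of 19 regulators and mitochondrial DNA genes 15 were higher (median 0.29). In 3 (15.8%) the groups did not overlap, all higher, against 12.8% of all genes in either direction. Polg2, the accessory subunit of the mitochondrial DNA polymerase, read 267, 312 and 256 in PU.1 ki/ki against 95, 77 and 64 in wild type (1.82 ± 0.19, adjusted p = 0.4004). Gabpa, the DNA-binding subunit of GABP, read 1116, 1115 and 878 in PU.1 ki/ki against 796, 418 and 443 in wild type (0.96 ± 0.30, adjusted p = 0.549). Ssbp1 was the third (0.29), and Nrf1 differed by 0.10 with overlap. Of the 4 lower genes Tfb1m, a mitochondrial rRNA methyltransferase, had the lowest p. It read 108, 147 and 249 in PU.1 ki/ki against 1575, 370 and 100 in wild type, with wild-type replicate 1 far above the other arrays (-1.29, and -0.28 without it). No gene of these lists had an adjusted p under 0.05. On wild-type replicate 3 the median level of the regulators was -0.94, against -0.20 to 0.37 on the other 5 arrays.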

How the data were processed

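RNA of sorted adult mouse HSCs was measured on 6 single-colour oligonucleotide arrays, 3 per group, with groups and replicate numbers from the sample titles. A free-text description that speaks of embryos, unlike all other labels, was not followed. The deposited intensity values were made by the authors with RMA, a step named without a version in the submitters' processing notes (per the labels). They are whole numbers on a linear scale from a minimum of 10, and the conversion and the minimum are not described there.

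Control probe sets (64 of 45101) were left out. Probe sets annotated to several genes (932) or unlisted (9160) went unnamed, and 10 of those with several genes carried a symbol of the rule, so Ndufa11 and Ndufs6 are not analysed here. All 83 members matched a RefSeq gene by number. Genotype alone entered a linear model of log2(intensity + 1) over all 45037 probe sets, fitted with limma 3.58.1 (R 4.3.3), with Benjamini-Hochberg adjustment and a threshold of 0.05, and was tested on simulated data. Differences of dim genes are understated, and values at the minimum have no order. Since the labels name no separate animals, p-values measure only the spread of these samples, which can be technical. The number of arrays limits the precision.

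The members, gene lists and tests were chosen with earlier results of these data known. Genes named were, per complex, those without overlap, the brightest and dimmest, a fixed panel of core subunits and isoforms, and per list the higher and lower gene with the lowest p. Others (genes lost on an array, and examples of probe sets that disagree) were chosen after their values were seen. Alternatives were a further quantile normalization, median centring, a pseudocount of 0, the mean of a gene's probe sets, leaving out dim probe sets, a trended and robust prior, a block for replicate number, array weights, and leaving out arrays.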

Additional observations from a re-analysis of the deposited data

How the results depend on the processing

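In every setting run, 0 probe sets passed the adjustment, with the lowest limma adjusted p of a setting between 0.120 (without wild-type replicate 1) and 0.882, and 2535 to 7183 probe sets at an unadjusted p under 0.05 in the settings that left out a single array. Counts and medians stayed close to the reported ones in 186 comparisons of a result with a setting and moved in 39. Single-gene differences were compared for the 11 genes without overlap, the 6 lost on an array and Cox7a1. They kept their sign in 260 comparisons and turned in 10. Leaving out arrays cannot turn the sign of a gene whose groups do not overlap. The trended prior and the replicate block leave the differences unchanged.

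With the replicate number as a block, 2 members in place of 6 had an unadjusted p under 0.05 in limma. Of all 45037 probe sets 3369 reached it, in place of 3731, and their lowest adjusted p was 0.664. Deviations from the group means showed no pairing by number. Their correlations across probe sets were -0.016, 0.021 and -0.017 for equal numbers, and -0.015 to 0.029 for other pairs across groups. With 3 arrays per group this does not settle whether samples of one number were handled together. The members' count at an unadjusted p under 0.05 was 1 without dim probe sets, 2 with a trended and robust prior and 3 with array weights. Of all probe sets, 1701 of 22519, 3165 of 45037 and 3272 of 45037 reached it in these settings. With a further quantile normalization 1 member was higher without overlap and the carriers' median was 0.29. With centring these were 2 and 0.26, 12 members were lower without overlap, and medians were -0.15 (all members), -0.22 (complex IV) and -0.012 (complex V). Over all probe sets 12.6% did not overlap in either direction with quantile normalization and 19.5% with centring. With the mean of a gene's probe sets 47 of the 83 members were higher. At an unadjusted p under 0.05 in limma 3 members were then higher and 1 lower, unlike the 1 and 5 on the brightest probe sets, and 1653 of 18193 genes reached it. In that setting 1 member was lower without overlap, where 14.2% of all genes did not overlap in either direction. Medians were 0.37 (assembly factors) and 0.45 (carriers). Without wild-type replicates 2 and 3 together 21 members were higher and 29 lower without overlap, as were 51.5% of all probe sets in either direction. Medians were then 0.16 (complex II), -0.38 (III), -0.00 (IV), -0.041 (V), -0.19 (citrate cycle) and -0.27 (ND5).

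When single arrays were left out, 5 to 13 members were higher and 9 to 17 lower without overlap, where 18.2 to 30.3% of all probe sets did not overlap, and 1 to 11 had an unadjusted p under 0.05. Medians ran from -0.09 to 0.00 for all members, -0.10 to 0.07 for complex I, 0.22 to 0.41 for II, -0.20 to -0.01 for III, -0.17 to -0.03 for IV and -0.039 to 0.16 for V. They ran from 0.075 to 0.40 for assembly factors, 0.32 to 0.53 for carriers, 0.19 to 0.36 for regulators, -0.09 to 0.20 for the citrate cycle and -0.08 to 0.22 for ND5.

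Without wild-type replicate 2 the differences of Ndufa3, Uqcrq and Atp5g2 turned to -0.34, -0.97 and -0.038, while without another single array they reached 1.46, 1.25 and 1.18. Without replicates 2 and 3 together they were -0.21, -0.72 and -0.14, and that of Ndufv1 was -0.33. With the mean of a gene's probe sets Ndufb8 turned to 0.007, Ndufv2 to 0.32 and Uqcrq to -0.007. Of the 83 members 51 kept their sign whichever array was left out, and 32 did not. With the mean of a gene's probe sets 18 of the members changed sign, and with centring and with quantile normalization 11 each. Array intensities near the minimum of 10 limit what can be read for the dim isoforms.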
